A study of Saccharomyces cerevisiae with 16 samples.

Results

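XUTs are long noncoding RNAs (lncRNAs) of budding yeast that pile up when the cytoplasmic exonuclease Xrn1 is missing. The 723 XUTs described here were also at least 2 times higher without Upf1 in glucose. In wild-type cells their ratio of starved to glucose level was under 1.5, which is what not induced means here. They are 723 of 1664 XUTs among 11997 features other than spike-ins. They were chosen by measured values. The mean of the upf1 libraries in glucose divided by the mean of the wild-type libraries in glucose had to be 2 or more. The mean of the starved wild-type libraries divided by the same wild-type mean had to be under 1.5. A pseudocount of 0.00364 reads per nucleotide was added to each mean.

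The RNA came from haploid Saccharomyces cerevisiae in 8 groups of 2 libraries, 16 libraries in all, which the series' design text calls biological replicates without saying more about the cultures, so the p-values measure the spread between these libraries. Wild-type cells (strain YAM1) were starved and then given cycloheximide at 100 µg/ml, or kept in glucose and given the same drug. Cells without Upf1 (YAM202, upf1Δ::kanMX4) and cells without Xrn1 (YAM6, xrn1Δ::kanMX4) were starved or kept in glucose. Wild-type cells without the drug, which received DMSO, were starved or kept in glucose. All 3 strains are MATa his3Δ1 leu2Δ0 met15Δ0 ura3Δ0 and grew to mid-log phase in glucose medium. Starvation means 16 min in medium with glycerol and ethanol instead of glucose. Per the labels each genotype is 1 strain. They give neither a solvent for the mutant cells nor how long the drug acted. The series asks what a general stop of translation initiation, which glucose loss brings about, does to cytoplasmic lncRNAs.

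Xrn1 degrades decapped RNA from its 5′ end in the cytoplasm, and many XUTs lie antisense to genes. Upf1 is the core helicase of nonsense-mediated decay, a pathway that acts on RNAs while they are translated and that leads to decapping and digestion by Xrn1. Cycloheximide arrests elongating ribosomes and so also blocks that pathway.

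The deposited values are reads per nucleotide of each feature, scaled between libraries by the authors. UPF1 (YMR080C) averaged 0.0147 ± 0.000746 reads per nucleotide in upf1 glucose libraries and 0.599 ± 0.0235 in wild-type glucose libraries (SD, n = 2 each). XRN1 (YGL173C) averaged 0.0775 ± 0.0117 in xrn1 glucose libraries and 1.16 ± 0.0343 in wild-type glucose libraries (SD, n = 2 each). These glucose libraries thus matched their genotype labels, which does not check the starvation or drug labels. Between 6740000 and 33200000 reads fell on single-exon open reading frames per library, as recovered from the smallest values. The 4 cycloheximide libraries carry another code in their column names (D940) than the other 12 (D1277), and the labels do not say what the codes mean. Where a comparison crosses these codes, drug and code cannot be told apart.

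On the authors' scale the levels of the 723 XUTs were lowest in wild-type cells without the drug and highest in xrn1 cells. Their median level was 0.0280 and 0.0272 reads per nucleotide in the starved libraries with cycloheximide, and 0.0745 and 0.0673 in the glucose libraries with the drug. The upf1 libraries had medians of 0.0238 and 0.0233 in starvation and 0.0419 and 0.0361 in glucose. The xrn1 libraries had medians of 0.109 and 0.108 in starvation and 0.108 and 0.0988 in glucose. Wild-type libraries without the drug had medians of 0.00973 and 0.00865 in starvation and 0.0104 and 0.0100 in glucose.

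On that scale the order of the group medians was xrn1, cycloheximide in glucose, upf1 in glucose, cycloheximide in starvation, upf1 in starvation and wild type without the drug. With libraries scaled to protein-coding genes the upf1 groups came first, with medians of group means of 0.0633 in glucose and 0.0567 in starvation, against 0.0422 and 0.0440 in xrn1 cells, and wild type without the drug stayed last at 0.0176 and 0.0201. On the authors' scale the xrn1 libraries of starvation and glucose overlapped and do not differ in this order beyond their spread, whereas the other neighbouring groups with a mutation or the drug did not overlap in their medians. The starved wild-type medians both lay under the glucose ones on that scale, by less than the distance between the starved libraries. Single XUTs covered a wide range in every group. Their wild-type glucose means ran up to 0.190 reads per nucleotide and their xrn1 glucose means from 0.00399 to 3.26, with XUT0083 the highest in both groups.

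**Figure D1:**
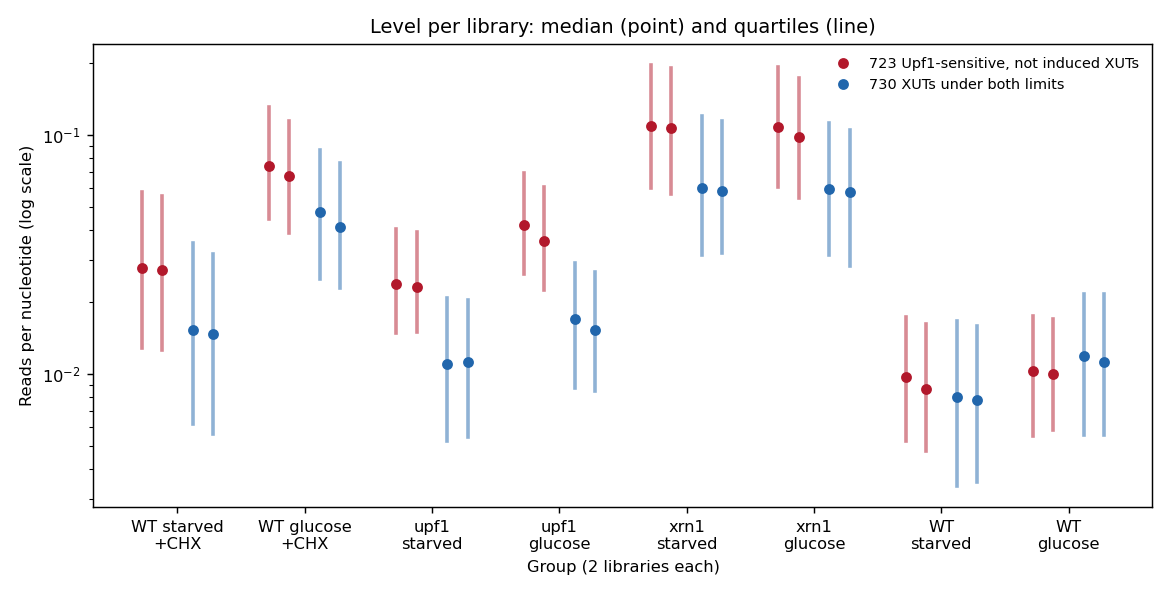
Level in each of 16 libraries (x axis, 8 groups of 2) in reads per nucleotide on a log scale: points are medians over XUTs and lines run between the quartiles, for the 723 Upf1-sensitive, not induced XUTs (red) and the 730 XUTs under both limits (blue). The red medians lie above the blue ones in all groups but wild type in glucose, where they are 0.0104 and 0.0100 in the red set.

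The 730 XUTs under both limits, called Upf1-insensitive below, serve as the closest comparison. The name stands only for a ratio under 2. Both upf1 glucose libraries lay above both wild-type glucose ones for 391 of the 730, against 45.7% of all features. They lay below for 40, against 22.5%, and the median ratio was 1.35. Group medians of the Upf1-insensitive XUTs were 0.0445 reads per nucleotide with cycloheximide in glucose, 0.0610 in starved xrn1 cells, 0.0572 in xrn1 cells in glucose and 0.0117 in wild-type cells in glucose. Against the Upf1-sensitive XUTs they were thus lower in drug and xrn1 libraries, with a wild-type level of the same order. Both limits were also met by 45.8% of 847 SUTs (stable unannotated transcripts), 21.8% of 1526 NUTs (transcripts seen without the terminator protein Nrd1), 10.8% of 925 CUTs (cryptic unstable transcripts, targets of the nuclear exosome) and 6.94% of 5918 protein-coding genes. Among XUTs the share was 43.4%, and it was 0 of 76 for snoRNAs.

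For most of these XUTs the highest of the 8 group means on the authors' scale was an xrn1 group. It was starved xrn1 cells for 360 (49.8%), xrn1 cells in glucose for 209 (28.9%) and cycloheximide in glucose for 141 (19.5%). The 730 Upf1-insensitive XUTs were much the same, with 334 (45.8%), 209 (28.6%) and 164 (22.5%), so this order is not particular to the 723. Starved cells with cycloheximide were highest for 9 XUTs (XUT0468, XUT0532, XUT0542, XUT0645, XUT1416, XUT1468, XUT1666, XUT1728 and XUT1776). The upf1 cells in glucose were highest for only 4, namely XUT0042, XUT0808, XUT1240 and XUT1767. Starved upf1 cells and wild-type cells without the drug were highest for none of the 723. With scaling to protein-coding genes the highest group was upf1 in glucose for 362, upf1 in starvation for 167, starved xrn1 cells for 98 and xrn1 in glucose for 50, so these counts rest on the scaling.

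The values that chose the XUTs are given as a description. Without Upf1 in glucose, both libraries lay above both wild-type glucose libraries for 722 of the 723, against 45.7% of the 11605 features tested, and the median ratio of means was 2.99. The exception was XUT0409, at 0.0167 and 0.00197 reads per nucleotide in upf1 libraries against 0.00218 and 0.00242 in wild-type libraries. XUT1407 (ratio 2.001) and XUT1230 (2.002) lay just inside the Upf1 limit, and XUT0410 (1.993) and XUT1306 (1.989) just outside it. At the starvation limit XUT0532 and XUT0359 were just inside at 1.499, and XUT0058 (1.511) and XUT1222 (1.513) just outside. Both starved wild-type libraries lay above both wild-type glucose libraries for 131 of the 723, against 19.2% of all features. They lay below them for 207, against 53%.

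The largest ratio belonged to XUT1361, at 27.1. It had 0.6 and 0.157 reads per nucleotide in upf1 glucose libraries, 1.09 and 0.415 in xrn1 glucose libraries, 0.360 and 0.288 with cycloheximide in glucose, and 0.0102 and 0.0106 in wild-type glucose libraries. XUT1187, with a ratio of 13.9, had 0.522 and 0.176 in upf1 glucose libraries, 0.875 and 0.389 in xrn1 glucose libraries, 1.06 and 0.869 with cycloheximide in glucose, and 0.0309 and 0.0126 in wild-type glucose libraries. In both XUTs the first library of each upf1 and xrn1 group was more than 1.5 times the second, so their ratios are less precise than those of most others.

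XUT0782 (ratio 9.03) had 0.0474 and 0.0463 reads per nucleotide in upf1 glucose libraries against 0.00285 and 0.00105 in wild-type glucose libraries, and XUT1185 (8.73) had 0.0993 and 0.0576 against 0.00411 and 0.00742. XUT0116 (8.66) had 0.0496 and 0.0337 in upf1 glucose libraries against 0 and 0.00319 in wild-type glucose libraries. XUT0788 (8.60) had 0.0557 and 0.0543 in upf1 glucose libraries against 0.00301 and 0.00334 in wild-type glucose libraries. All 4 were close to the floor in wild-type cells, where 83 of the 723 XUTs had a mean under the pseudocount and 6 were listed at 0 in both glucose libraries (XUT0016, XUT0218, XUT0243, XUT1075, XUT1519 and XUT1586). The ratios of such XUTs depend on the pseudocount.

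The 4 XUTs with the highest level in upf1 cells in glucose had large values everywhere. XUT0083 had 0.762 and 0.678 reads per nucleotide in upf1 glucose libraries, 3.42 and 3.11 in xrn1 glucose libraries, 0.819 and 0.662 with cycloheximide in glucose, and 0.181 and 0.199 in wild-type glucose libraries. XUT0961 had 0.566 and 0.465 in upf1 glucose libraries, 1.48 and 1.37 in xrn1 glucose libraries, 0.815 and 0.788 with the drug, and 0.1 and 0.0908 in wild-type glucose libraries. The upf1 and drug libraries overlapped for XUT0083, while for XUT0961 the drug libraries lay above the upf1 ones, and the xrn1 libraries of both lay above all others.

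XUT0311 had 0.447 and 0.440 reads per nucleotide in upf1 glucose libraries, 1.53 and 1.38 in xrn1 glucose libraries, 0.354 and 0.317 with cycloheximide in glucose, and 0.0627 and 0.0654 in wild-type glucose libraries. XUT1270 had 0.433 and 0.371 in upf1 glucose libraries, 1.35 and 1.36 in xrn1 glucose libraries, 0.615 and 0.601 with the drug, and 0.140 and 0.124 in wild-type glucose libraries. XUT0311 differed from the other 3 in that its drug values lay below its upf1 values.

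**Figure D2:**
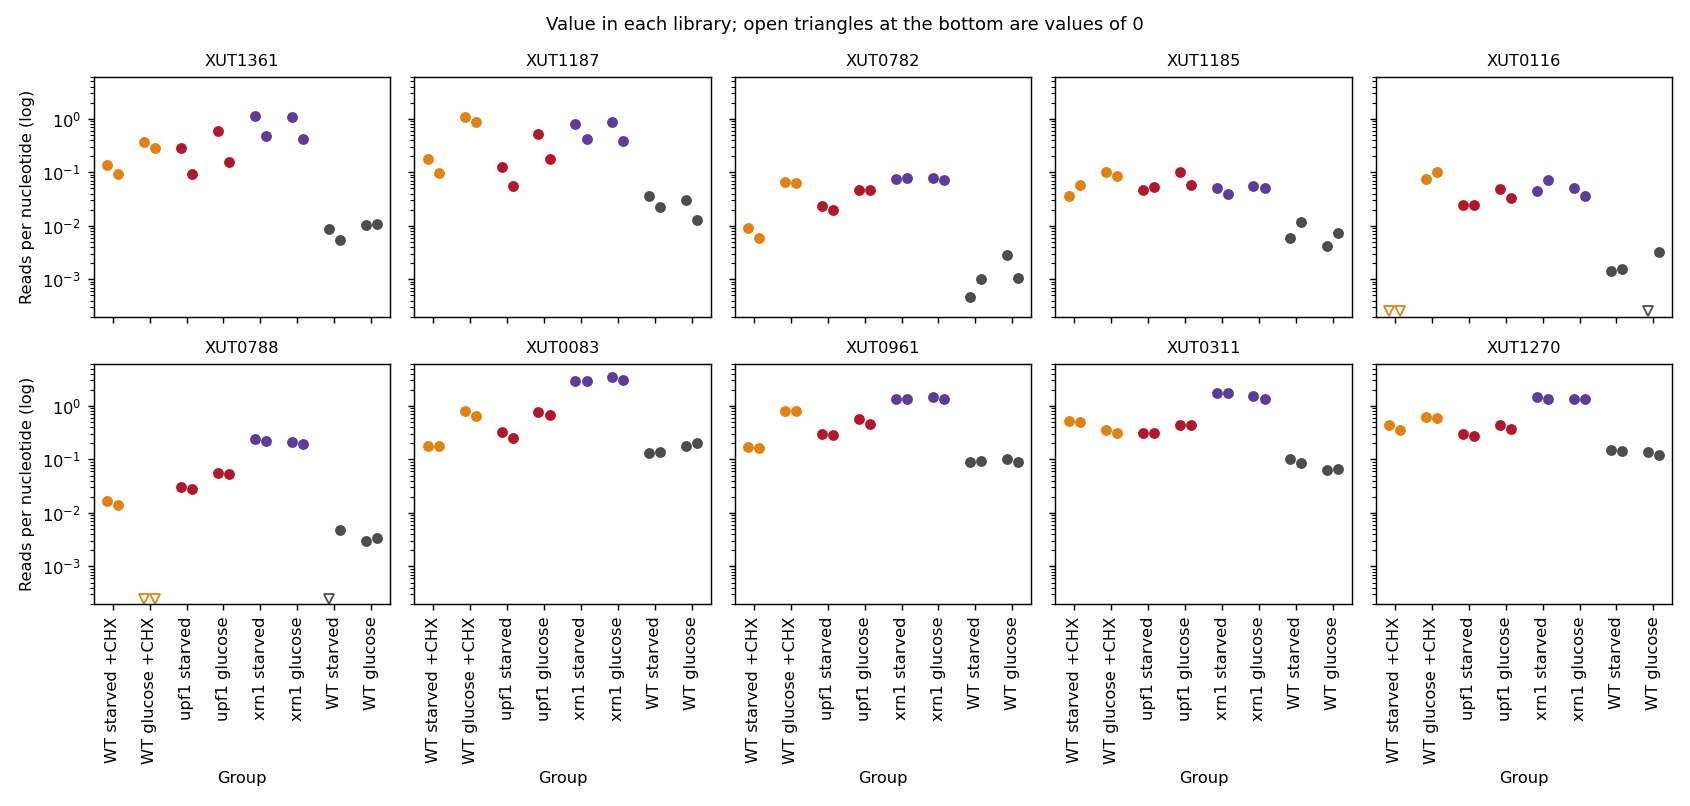
Reads per nucleotide (y axis, log scale) in each library of 8 groups (x axis) for the 6 XUTs with the largest upf1 to wild-type ratio and the 4 with the highest level in upf1 glucose libraries; open triangles at the bottom stand for values of 0. In wild-type glucose libraries XUT1361 is at 0.0102 and 0.0106 and XUT0083 at 0.181 and 0.199, and XUT0788 is listed at 0 in both glucose libraries with cycloheximide.

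Comparisons that share the wild-type libraries of the rule are given here as values without a test, because a low wild-type value also helped a XUT to be chosen. Starved upf1 against starved wild type, given further below, was tested all the same. With cycloheximide in glucose, both libraries lay above both wild-type glucose libraries for 715 of the 723 XUTs, against 94.1% of all features, and the median ratio was 5.35. It was 2.91 for the Upf1-insensitive XUTs. The 1 XUT whose drug libraries lay below wild type, against 1.35% of all features, was XUT0788, listed at 0 in both. Without Xrn1 in glucose, both libraries were higher than wild type for 720, against 93.9% of all features, with a median ratio of 7.78, and 3.96 for the Upf1-insensitive XUTs. A ratio of 2 or more without Xrn1 held for 721 of the 723, all but XUT0042 and XUT1230, against 85.4% of all features and 89% of the Upf1-insensitive XUTs. In glucose most features were thus higher in drug and xrn1 libraries than in wild-type libraries, these XUTs included. Scaled to protein-coding genes, the drug libraries were higher for 522 and lower for 33, against 44.1% and 34.7% of all features. The xrn1 libraries were then higher for 644 and lower for 8, against 49% and 34.7%.

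In starvation the drug libraries lay above both wild-type libraries for 592 of the 723 XUTs, against 72.3% of all features, and below them for 22, against 11.6%, with a median ratio of 2.36. The starved xrn1 libraries lay above starved wild type for 721, against 96% of all features, with a median ratio of 8.61. With scaling to protein-coding genes 321 were higher than starved wild type with the drug and 148 lower, against 38.5% and 38.6% of all features. Scaled the same way, starved xrn1 cells gave 579 higher and 29 lower, against 46.3% and 35.3%. Starved upf1 libraries lay below the upf1 glucose libraries for 637, against 70.7% of all features, and above them for 3, against 7.57%, with a median ratio of 0.639. High upf1 glucose values helped to choose the XUTs, so part of this count is fixed by the rule. With scaling to protein-coding genes the counts were 288 below and 85 above, against 34.5% and 30.7% of all features. In bulk RNA, fewer cells that hold a transcript and less of it per cell cannot be told apart.

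The xrn1, drug and upf1 libraries were also compared in glucose. Both xrn1 libraries lay above both upf1 libraries for 653 of the 723 XUTs, against 92% of all features, with a median ratio of 2.59, a share close to that of all features. They lay below them for 8, against 1.59% of all features: XUT0042, XUT0176, XUT0325, XUT1113, XUT1185, XUT1231, XUT1460 and XUT1541. Cycloheximide libraries in glucose lay above the upf1 libraries for 551, against 89.8%, and below them for 34, against 2.1%, with a median ratio of 1.67. These upf1 values chose the XUTs, so the smaller distance to the upf1 libraries than for all features is no independent result. The direction rests on the scaling. Scaled to protein-coding genes, xrn1 libraries lay above the upf1 ones for 97 and below for 485, against 30.9% and 49.4% of all features. Drug libraries then lay above the upf1 ones for 9 and below for 641, against 28.4% and 53.6%.

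The starved upf1 libraries, which the rule did not use, were compared with the starved wild-type libraries, which entered its upper limit. A low starved wild-type value thus helped a XUT to be chosen. The counts and p-values of this comparison, also those of XUTs named below, are not independent of the choice. Of the 723 XUTs, 530 (73.3%) were higher in starved upf1 cells than in starved wild-type cells, against 19.1% of all features tested, by limma with an adjusted p under 0.05. No XUT of the 723 was lower, against 15.9% of all features; at an unadjusted p under 0.05, 591 were higher and 0 lower. The median log2 change was 1.04, against 0.02 over all features, on the scale of log2(value + 0.00364). Among 691 Upf1-insensitive XUTs that could be tested, 95 were higher and 2 lower, with a median of 0.29. Because the starved wild-type libraries entered the upper limit of the rule, the count was repeated for XUTs chosen by the Upf1 ratio alone: 571 of 858 rose and 2 fell. Scaling to snoRNAs left 309 of the 723 that rose, with no count made over all features.

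Both starved upf1 libraries lay above both starved wild-type libraries for 663 XUTs, against 36.3% of all features. Yet the difference was smaller than in glucose for most: 664 of the 723 had a smaller ratio of means in starvation, with a median ratio of 2.06. The median ratio was also smaller in starvation over all features (1.014, against 1.135 in glucose) and over the Upf1-insensitive XUTs (1.197 against 1.351). A smaller ratio is thus not particular to the 723. A ratio of 2 or more held in starvation for 387 (53.5%), against 9.96% of all features and 40 of the 730 Upf1-insensitive XUTs. Since a high ratio in glucose chose the XUTs, part of such a decline is built into the choice. The ratio was under 1 in starvation for 7 (XUT0174, XUT0564, XUT0582, XUT1231, XUT1334, XUT1399 and XUT1407), none of which passed the test.

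XUTs with a larger ratio in glucose rose more often in starvation. Of the 201 with a glucose ratio of 2 to 2.5, 47.8% rose, with a median log2 change of 0.69. The share was 71.5% of 165 at ratios of 2.5 to 3, 84% of 213 at 3 to 4 and 95% of 120 at 4 to 6. At 6 or more it was 95.8% of 24, with a median of 1.98. Levels rose with the ratio too: the median level over all 16 libraries was 0.0360 reads per nucleotide in the lowest of these 5 ranges and 0.0829 in the highest, and the share of level in these counts was not tested. Over the 723 XUTs the log2 changes in both media had Pearson's r of 0.641 and Spearman's rho of 0.626. The points share libraries within each medium and the glucose ratio is cut off at 2, so this is a description.

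**Figure D3:**
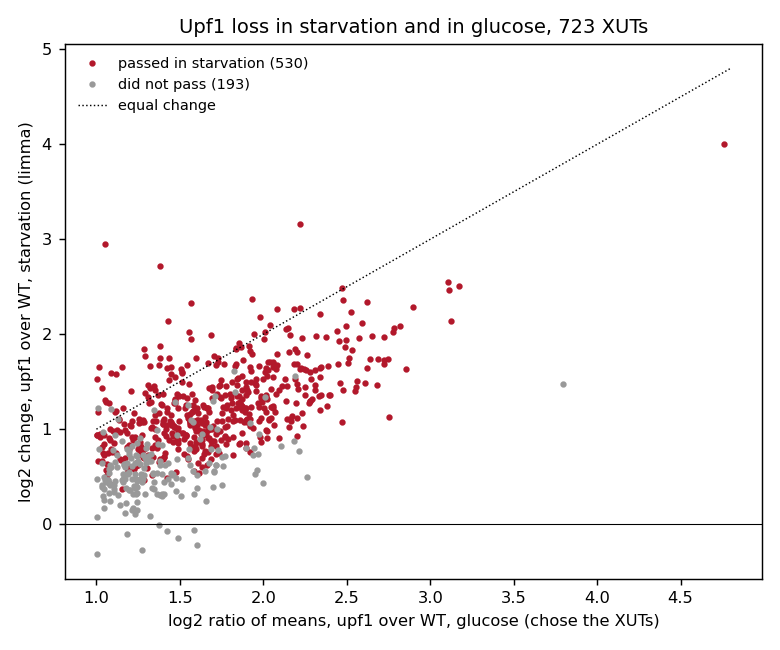
Each point is 1 of 723 XUTs: log2 ratio of means, upf1 over wild type, in glucose (x axis, the value that chose the XUTs) against the limma log2 change, upf1 over wild type, in starvation (y axis). The 530 red XUTs passed an adjusted p of 0.05 in starvation and the 193 grey ones did not. Of all 723, 664 had a smaller ratio of means in starvation than in glucose, and the median ratio over all features was smaller too.

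XUT1361 rose most, with 0.289 and 0.0940 reads per nucleotide in starved upf1 libraries against 0.00870 and 0.00542 in starved wild-type libraries (log2 change 4.0 ± 0.65 SE, limma adjusted p = 0.000617). XUT0393 had 0.0382 and 0.0318 in starved upf1 libraries against 0.00322 and 0 in starved wild-type libraries (2.95 ± 0.32, limma adjusted p = 3.46e-05). In both the groups did not overlap, with the upf1 libraries of XUT1361 further apart than those of XUT0393. XUT0117 had 0.0478 and 0.0170 in starved upf1 libraries and was listed at 0 in both starved wild-type libraries, so it is given no fold; its adjusted p by limma was 0.00332. In glucose XUT0393 had 0.0287 and 0.0509 in upf1 libraries against 0.0199 and 0.0147 in wild-type libraries, a ratio of 2.07.

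Of the 6 XUTs with the largest glucose ratio, 5 passed in starvation. XUT0782 had 0.0233 and 0.0193 reads per nucleotide in starved upf1 libraries against 0.000461 and 0.00101 in starved wild-type libraries (log2 change 2.51 ± 0.22, limma adjusted p = 7.33e-06). XUT1185 had 0.0470 and 0.0538 against 0.00600 and 0.0120 (2.14 ± 0.31, limma adjusted p = 0.000301). XUT1187, at 0.127 and 0.0559 in starved upf1 libraries against 0.0353 and 0.0224 in starved wild-type libraries, did not pass (1.47 ± 0.58, limma adjusted p = 0.0654), although the groups did not overlap.

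The 4 abundant XUTs all passed. XUT0083 had 0.324 and 0.254 reads per nucleotide in starved upf1 libraries against 0.130 and 0.138 in starved wild-type libraries (log2 change 1.08 ± 0.13, limma adjusted p = 7.43e-05). XUT0311 had 0.314 and 0.310 against 0.104 and 0.0862 (1.68 ± 0.11, limma adjusted p = 8.01e-07). XUT0961 and XUT1270 rose by 1.66 ± 0.10 and 0.92 ± 0.12. All 8 starved upf1 values of these XUTs lay above the wild-type ones of the same XUT.

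Starvation was next asked about in cells with cycloheximide, whose libraries the rule did not use. Of the 723 XUTs, 558 (77.2%) fell in starved against glucose-grown cells with the drug, and 21 rose, by limma with an adjusted p under 0.05. Of all features tested, 73.7% fell and 6.99% rose, so the XUTs moved with the bulk of the transcriptome. Their median log2 change was -1.21, against -1.14 over all features and -1.23 over the Upf1-insensitive XUTs, of which 476 fell and 26 rose. The fall depends on the scaling: with libraries scaled to protein-coding genes the median over all features was -0.08, and 221 of the XUTs fell and 153 rose. No such count was made over all features. Nonsense-mediated decay factors fell as well with the drug (5 of 5 fell, median -1.71), as did 17 of 17 genes of the nuclear exosome and its cofactors, 11 of 11 deadenylase genes and 16 of 20 genes of 5′-3′ decay. Of all protein-coding genes 80.7% fell, with a median of -1.15. The medians of the deadenylase and 5′-3′ decay genes, -1.07 and -1.08, lay close to that. Scaled to protein-coding genes, 16 of the 17 exosome genes and 3 of the 5 decay factors still fell, but the medians of the deadenylase and 5′-3′ decay genes were 0.07 and 0.06, with 4 and 8 genes that rose.

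Among the XUTs that fell most, XUT0741 had 0.0155 and 0.0126 reads per nucleotide in starved libraries with the drug against 0.512 and 0.395 in glucose libraries with it (log2 change -4.68 ± 0.23, limma adjusted p = 7.64e-10). XUT0182 was listed at 0 in both starved drug libraries and had 0.216 and 0.0844 in the glucose ones (limma adjusted p = 5.24e-07). XUT0116 was also listed at 0 in both starved drug libraries and had 0.0763 and 0.0993 in the glucose ones (limma adjusted p = 3.20e-08). The groups of these 3 did not overlap, and no fold is given for the pair at 0. XUT1075, XUT1076, XUT1390 and XUT1527 were at 0 in both starved drug libraries too.

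Of the XUTs that rose, XUT1732 had 0.183 and 0.108 reads per nucleotide in starved libraries with the drug against 0.0471 and 0.0607 in glucose libraries with it (log2 change 1.34 ± 0.24, limma adjusted p = 0.00024). XUT0899 had 0.0656 and 0.0296 against 0.0101 and 0.0202 (1.41 ± 0.42, limma adjusted p = 0.00773), a call that was lost without the first library of the starved or of the glucose group (adjusted p = 0.0976 and 0.0841). XUT0788 had 0.0165 and 0.0142 in starved libraries with the drug and was listed at 0 in both glucose libraries with it. In upf1 libraries XUT0788 had 0.0301 and 0.0277 in starvation and 0.0557 and 0.0543 in glucose, the opposite order. Of the 4 abundant XUTs, XUT0083, XUT0961 and XUT1270 fell by 2.05 ± 0.13, 2.23 ± 0.10 and 0.61 ± 0.12 on the log2 scale, whereas XUT0311 rose by 0.61 ± 0.11.

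In xrn1 cells starvation had next to no effect that passed. Of the 723 XUTs, 1 rose, against 2.8% of all features, and 0 fell, against 0.233%, by limma; at an unadjusted p under 0.05, 15 were higher and 3 lower. The median log2 change was 0.06, against 0.03 over all features, and -0.09 with scaling to snoRNAs, so its sign depends on the scaling. The XUT that rose was XUT1243, with 0.714 and 0.777 reads per nucleotide in starved xrn1 libraries against 0.552 and 0.538 in xrn1 glucose libraries (log2 change 0.45 ± 0.11, limma adjusted p = 0.0425). The groups did not overlap, but the call was lost without any 1 of the 4 libraries (adjusted p from 0.152 to 0.354). With the drug XUT1243 moved the other way, at 0.138 and 0.152 in starved libraries against 1.05 and 0.982 in glucose libraries (-2.79 ± 0.11, limma adjusted p = 7.57e-11). A limma test of the difference between the starvation responses with the drug and in xrn1 cells was added after the data were seen. The response was lower with the drug for 502 of the 723 XUTs, against 69.1% of all features, and higher for 8, against 3.09%, so the XUTs moved with the bulk of features. Scaled to protein-coding genes the counts were 155 and 84, with no count made over all features. Of the 53 decay genes, only DCS2 passed in starved xrn1 cells, a gene of the scavenger decapping enzyme family, which rose by 0.94 ± 0.16. With scaling to snoRNAs none of the 53 passed, and with scaling to protein-coding genes DCS1 and DCS2 rose, and 4 exosome genes and 1 deadenylase gene fell.

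**Figure D4:**
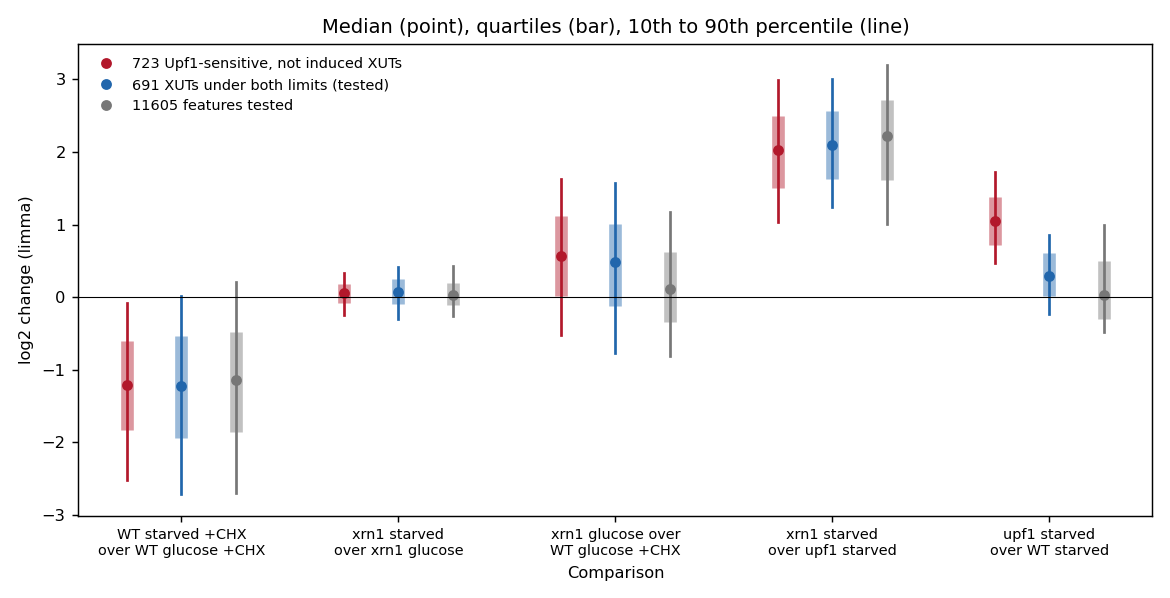
Limma log2 change (y axis) in 5 comparisons (x axis): points are medians, bars run between the quartiles and lines between the 10th and 90th percentiles, for the 723 Upf1-sensitive, not induced XUTs (red), the 691 tested Upf1-insensitive XUTs (blue) and all 11605 features tested (grey). The red and grey medians are 1.04 and 0.02 for starved upf1 over starved wild type, and -1.21 and -1.14 for starvation with the drug.

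Xrn1 loss and Upf1 loss were then set side by side in starved cells, with libraries outside the rule. Of the 723 XUTs, 681 (94.2%) were higher in starved xrn1 cells than in starved upf1 cells, against 91.9% of all features, and 0 were lower, against 0.465%, by limma. At an unadjusted p under 0.05 the counts were 682 and 0. The median log2 difference was 2.03, against 2.22 over all features and 2.10 over the Upf1-insensitive XUTs. This difference rests on the scaling: with libraries scaled to protein-coding genes the median over all features was -0.16, that of the XUTs was -0.33, and 65 were higher and 240 lower. The shares of all features were not counted under that scaling.

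The largest differences were those of XUT1452, XUT0599 and XUT0575. XUT1452 had 0.468 and 0.460 reads per nucleotide in starved xrn1 libraries against 0.0197 and 0.0242 in starved upf1 libraries (log2 difference 4.20 ± 0.16, limma adjusted p = 4.16e-11). XUT0599 had 0.984 and 0.955 against 0.0527 and 0.0537 (4.10 ± 0.16), and XUT0575 had 0.865 and 0.867 against 0.0520 and 0.0464 (4.04 ± 0.16). In all 3 the xrn1 and upf1 libraries did not overlap. XUT1185, named above for its glucose ratio, had 0.0507 and 0.0394 in starved xrn1 libraries against 0.0470 and 0.0538 in starved upf1 libraries (-0.16 ± 0.31, limma adjusted p = 0.632), and the libraries overlapped.

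Loss of Xrn1 and cycloheximide both act on wild-type decay, the first by removing the nuclease and the second by stopping ribosomes. In glucose 334 of the 723 XUTs (46.2%) were higher in xrn1 cells than with cycloheximide, against 29.6% of all features, and 48 (6.64%) were lower, against 18.3%, by limma. The median log2 difference was 0.57, against 0.11 over all features and 0.48 over the Upf1-insensitive XUTs, of which 234 were higher and 62 lower. Of all 1624 XUTs tested, 42.1% were higher and 8% lower. XUTs are defined by piling up without Xrn1, so an excess over all features is partly built into the class. Here strain, drug and column code cannot be told apart. The count that were lower was 25 without the first cycloheximide library in glucose and 21 without the second xrn1 library in glucose.

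Of those higher without Xrn1, XUT1727 had 0.272 and 0.239 reads per nucleotide in xrn1 glucose libraries against 0.0315 and 0.0208 with cycloheximide in glucose (log2 difference 3.14 ± 0.22, limma adjusted p = 4.39e-07). XUT0409 had 0.136 and 0.112 against 0.0281 and 0 (3.56 ± 0.84, limma adjusted p = 0.00396), and XUT0788 had 0.215 and 0.197 in xrn1 glucose libraries and was listed at 0 with the drug. The 2 drug libraries of XUT0409 were far apart, those of XUT1727 were not. XUT1727 had 0.0279 and 0.0190 in upf1 glucose libraries, close to its drug values on the authors' scale.

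In the other direction XUT1231 had 0.0475 and 0.0586 reads per nucleotide in xrn1 glucose libraries against 0.208 and 0.235 with cycloheximide in glucose (log2 difference -1.99 ± 0.33, limma adjusted p = 0.000318). XUT1095 had 0.0432 and 0.0527 against 0.171 and 0.159 (-1.71 ± 0.21, limma adjusted p = 4.12e-05). XUT0245 had 0.00757 and 0.0168 against 0.0380 and 0.0571 (-1.73 ± 0.40, limma adjusted p = 0.00333). On the authors' scale the xrn1 values of all 3 lay near those of upf1 cells in glucose, and the drug values stood above both. The upf1 glucose values were 0.0611 and 0.0591 for XUT1231, 0.0441 and 0.0414 for XUT1095, and 0.0227 and 0.0115 for XUT0245. How xrn1 and drug values stand to upf1 values rests on the scaling, as given above.

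**Figure D5:**
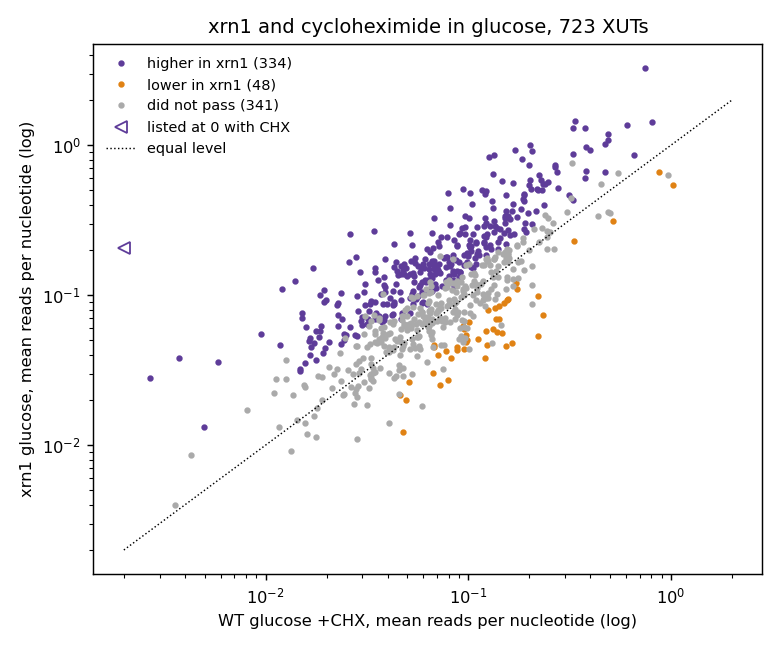
Mean of 2 libraries in reads per nucleotide for each of 723 XUTs, with cycloheximide in glucose (x axis, log) against xrn1 in glucose (y axis, log); the dotted line marks equal levels. Of the XUTs, 334 were higher in xrn1 cells (purple), 48 lower (orange) and 341 did not pass (grey), and XUT0788, listed at 0 with the drug, is drawn as an open triangle at the left edge.

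Genes of RNA decay were read beside the XUTs from 4 lists of 53 genes in all. Of the 5 nonsense-mediated decay factors, NMD4 and EBS1 rose without Upf1 in starvation (NMD4 alone with scaling to snoRNAs) and UPF1 itself, which is deleted, fell. NMD4, which binds Upf1, had 0.376 and 0.377 reads per nucleotide in starved upf1 libraries against 0.109 and 0.110 in starved wild-type libraries (log2 change 1.75 ± 0.10), and its rise in glucose was 2.29 ± 0.10. EBS1 had 0.272 and 0.256 in starved upf1 libraries against 0.168 and 0.163 in starved wild-type libraries (0.66 ± 0.13). Both mRNAs thus moved with the XUTs, and their starved upf1 and wild-type libraries did not overlap.

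None of 20 5′-3′ decay genes, 11 deadenylase genes and 17 nuclear exosome genes rose without Upf1 in starvation, against 10.2% of protein-coding genes. In these lists 9, 6 and 9 genes fell, against 29.9% of protein-coding genes and 15.9% of all features. Scaled to protein-coding genes, LRP1, SKI6 and RRP46 of the exosome list rose, and scaled to snoRNAs 16, 10 and 13 genes of these lists fell. With the drug, the steepest falls in starvation among the exosome genes were those of TRF5 and MTR4. TRF5, a poly(A) polymerase of the TRAMP complex, had 0.0191 and 0.0178 reads per nucleotide in starved libraries with the drug against 0.676 and 0.620 in glucose libraries with it. MTR4, the helicase of that complex, had 0.0965 and 0.0969 against 1.64 and 1.61. DCS2 rose there, at 5.58 and 4.59 in starved libraries with the drug against 2.40 and 1.87 in glucose libraries with it. Whether these decay genes had a part in the levels of the XUTs was not tested.

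Many of the XUTs had values nearly proportional to those of another lncRNA feature. Of 363 with a mean of 0.05 reads per nucleotide or more and a value above 0 in every library, 145 kept a nearly constant ratio to another feature over all 16 libraries (SD of the log2 ratio under 0.1). The partner was a SUT for 101, a NUT for 43 and a CUT for 1, and never an mRNA or another XUT. For 9 the ratio was the same in all libraries to the rounding of the files. Examples are XUT1590 with SUT737 (ratio 0.979, partner over XUT), XUT1724 with SUT796 (1.07), XUT1700 with NUT1423 (0.995), XUT1442 with SUT672 (1.01) and XUT0047 with SUT014 (1.07). Of the XUTs named above, XUT0311 was paired in this way with SUT103, XUT0599 with SUT238, XUT1452 with NUT1235, XUT1666 with SUT765 and XUT0575 with SUT229. The same held for 39 of 201 Upf1-insensitive XUTs. Whether paired features overlap in the genome was not tested, as coordinates of these lncRNAs were not used here. The counts of XUTs, SUTs and NUTs are in any case not independent of each other.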

How the data were processed

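Per the labels' protocols, ERCC spike-ins were added to 1 µg of hot-phenol RNA per sample, followed by rRNA depletion and stranded library preparation. The submitters' processing notes name Trim Galore, HISAT2 2.2.0, featureCounts 2.0.0, DESeq2 and genome build R64, without role or order. The authors deposited a coverage signal, reads per nucleotide, whose scaling is not stated. Spike-in sums were 305 to 317 in all libraries. Scaling the libraries to the spike-ins left the counts of highest groups as reported, with 360 for starved xrn1 cells and 209 for xrn1 cells in glucose. It also left 653 XUTs higher and 8 lower in xrn1 than in upf1 libraries in glucose. The authors' scale thus acts like a spike-in scale. The 8 columns of group means were not used.

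Here log2(signal + 0.00364) was fitted with limma 3.58.1 in R 4.3.3, with 1 mean per group over 16 libraries (8 residual and 4.43 prior degrees of freedom) and Benjamini-Hochberg adjustment over 11605 features whose mean was at least 0.00364, the 5th percentile of positive values. All 723 XUTs passed this filter. This pseudocount stands for 3.29 to 13.8 reads per kb, and the XUTs' median was 23.8 to 30.2 reads per kb in wild-type libraries without drug and 152 to 207 in xrn1 libraries. No count test was run, since 79.5 to 91.3% of low values gave whole reads within 0.02. The fit was tested on simulated data. XUTs, gene lists and comparisons were chosen with earlier results of these data known. Named XUTs were the 6 with the largest Upf1 ratio, the 4 highest in upf1 glucose libraries, 2 on each side of each limit, up to 3 each way in 5 comparisons among those passing without overlap, and 5 with the most constant partner; decay genes were up to 3 each way per list. XUTs named as exceptions, XUT0042 for example, were named after their values were seen. Alternatives were pseudocounts, filters, scalings, other fits, a 2-fold minimum and leaving out each library. XUT coordinates and sequences were not used here.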

Additional observations from a re-analysis of the deposited data

Results flagged for a closer look

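The starvation responses in cells with cycloheximide and in xrn1 cells were compared after the data were seen, and they differed for most features, the XUTs included. By limma on the difference of the log2 changes, 502 of the 723 XUTs had a lower response with the drug than in xrn1 cells, against 69.1% of all features, and 8 a higher one, against 3.09%. The median difference was -1.25, against -1.15 over all features. XUT0741 had a difference of -4.40 ± 0.32 SE (adjusted p = 9.89e-08). The 8 with a higher response were XUT0281, XUT0311, XUT0461, XUT0788, XUT1666, XUT1728, XUT1732 and XUT1776. The share of XUTs that were lower, 69.4%, was close to that of all features. With libraries scaled to protein-coding genes 155 were lower and 84 higher, and with scaling to snoRNAs 290 and 14. The shares of all features under these scalings were not counted. Drug, strain and column code cannot be told apart here.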

How the results depend on the processing

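The 5 comparisons and the choice of the XUTs were repeated with other settings. These repeats counted calls among the XUTs only, so no share of all features stands beside them. Of 265 repeats for named XUTs, 256 kept direction and call, 9 lost the call and 0 reversed. Scaling by the median of ratios over protein-coding genes had the largest effect on counts. For starvation with cycloheximide it gave 153 XUTs that rose and 221 that fell (21 and 558 as reported), and for xrn1 against upf1 in starvation 65 and 240 (681 and 0), with a median of -0.33 in place of 2.03. It gave 2 XUTs that rose in starved xrn1 cells (1 as reported), and 155 lower and 84 higher (502 and 8) for the difference of the starvation responses. Scaling to snoRNAs gave 309 that rose without Upf1 in starvation (530), 216 higher in xrn1 than with the drug in glucose (334), 0 that rose in starved xrn1 cells with a median of -0.0914 (0.06), and 290 lower and 14 higher for the difference of responses. A pseudocount 10 times larger gave 167 XUTs by the rule (723), 4 that rose and 1 that fell in starved xrn1 cells, and 78 lower in xrn1 than with the drug (48). A 2-fold minimum left 7 that rose in starvation with the drug, 0 in starved xrn1 cells, and 215 higher and 19 lower in xrn1 than with the drug. The compared groups alone gave 10 that rose in starved xrn1 cells. XUTs chosen by the Upf1 ratio alone gave 571 that rose and 2 that fell.

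Leaving out 1 library gave 15 to 20 that rose and 482 to 545 that fell in starvation with the drug, 0 to 0 that rose in starved xrn1 cells, 255 to 320 higher and 21 to 36 lower in xrn1 than with the drug, 657 to 665 higher in xrn1 than in upf1 in starvation, 396 to 435 that rose without Upf1 in starvation, 676 to 768 XUTs by the rule, and 419 to 487 lower and 4 to 13 higher for the difference of responses. The median for starved xrn1 cells ran from -0.00679 (without the second xrn1 glucose library) to 0.129. Leaving out a library leaves 1 in its group, which is assumed to vary like the other groups.

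Replicate numbers did not pair the libraries: over 28 pairs of groups the correlation of the replicate differences ran from -0.0863 to 0.0818. The replicate block gave 2 that rose in starved xrn1 cells, 563 that fell in starvation with the drug, 540 that rose without Upf1 in starvation, and 346 higher and 56 lower in xrn1 than with the drug. The cause of each of these shifts was not tested. Depth limits the XUTs most in starved libraries with the drug, at a median of 25.1 and 29.8 reads per kb, and in wild-type libraries without it, at 23.8 to 30.2.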
